A study of Drosophila melanogaster with 12 samples.

Results

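The response to dextran sulfate sodium (DSS), a sulfated sugar polymer that damages the lining of the gut, was measured in progenitor cells of the adult Drosophila melanogaster midgut that carried a knockdown construct against trithorax (trx). The 3 libraries labelled trxRNAi DSS were compared with the 3 labelled trxRNAi sucrose, which are 6 of the 12 libraries of the study. Genes were tested where at least 3 of the 12 libraries had a value of 10 or more, and 8399 of the 17617 listed genes met that rule. The flies of these 6 libraries came from a cross of the esgtsGFP driver line to UAS-trxRNAi (BDSC#33703). The other 6 libraries, used here only for comparison, came from the same driver line crossed to w1118 (control) and fell into the same feeds with 3 libraries each. All groups thus shared the driver, whose esg promoter is active in stem cells and in their undifferentiated daughters, and whose temperature-sensitive repressor keeps it off until flies are warmed. Mated females aged 3 to 4 days were moved to 29 °C, where they stayed 7 days, and their feed in the last 48 h was 5% sucrose or 3% DSS. GFP-positive cells were sorted from the gut, and their RNA was read by 3′ end sequencing.

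Intestinal stem cells of the fly midgut divide to renew themselves and to replace absorptive enterocytes and hormone-secreting enteroendocrine (EE) cells, and damage by DSS is used to make them divide faster. Notch signalling directs most daughters towards the enterocyte fate, while proneural factors and the homeobox factor Prospero direct others to the EE fate. Trithorax is a histone methyltransferase that keeps genes of developmental choice active, and the title of the series places Ptx1, a paired-like homeobox gene, downstream of it in EE specification.

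The deposited values look like read counts scaled by a factor per library and rounded, and with such scaling differences between libraries in total RNA could not be measured. Value totals ran from 5722220 to 6520981 in the 6 trxRNAi libraries. Differences are log2 differences of value plus 2, DSS minus sucrose, with their standard error (SE), and a fold is that difference on the linear scale, which understates changes of low genes. Adjusted p-values are those of limma over all 8399 genes, with a threshold of 0.05 for a call. The labels did not say whether the 3 libraries of a group came from separate flies, so these p-values measured the spread between the libraries, which may be technical. In sorted bulk samples, fewer cells of a type and less RNA per cell cannot be told apart.

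The knockdown target was examined first. trx (chromosome 3R, 14263358 to 14286903, minus strand, dm6 coordinates) stood at 668, 667 and 448 in libraries labelled trxRNAi sucrose and 715, 758 and 808 in those labelled trxRNAi DSS. All 3 DSS values lay above all 3 sucrose values, but the difference of 0.38 ± 0.19 missed the threshold (adjusted p = 0.458 in limma, 95% confidence interval -0.03 to 0.78). Control libraries held 1114, 1217 and 1313 under sucrose and 841, 1041 and 652 under DSS, so the trxRNAi values under DSS lay within the range of the control values under the same feed. The gene therefore did not bear out the genotype label under DSS. Under sucrose all 3 trxRNAi values lay below all 3 control values. Averaged over the feeds, trx differed by -0.59 between trxRNAi and control (adjusted p = 0.0206 in limma). Some hormone genes did differ by labelled genotype under both feeds: NPF had 794, 1249 and 1340 in trxRNAi DSS against 12080, 11462 and 7481 in control DSS, and averaged over the feeds NPF, AstC and Orcokinin differed by -2.97, -2.34 and -2.87 between trxRNAi and control (adjusted p of 7.31e-06, 1.15e-07 and 1.08e-05 in limma). Groups are named here as the libraries are labelled.

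The distances between the groups were measured over all genes. The root mean square of the log2 differences over all tested genes was 0.646 between trxRNAi sucrose and trxRNAi DSS. It was smaller between trxRNAi sucrose and control DSS, at 0.444, and between trxRNAi DSS and control sucrose, at 0.569, than between trxRNAi and control under the same feed, where it was 0.675 under sucrose and 0.794 under DSS. Between trxRNAi sucrose and control DSS, groups that differ in both genotype and feed, limma called 16 genes, or 0.19% of those tested. Whether the labels name the genotype and feed that the flies had was not tested, and each result below rests on them.

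**Figure D1:**
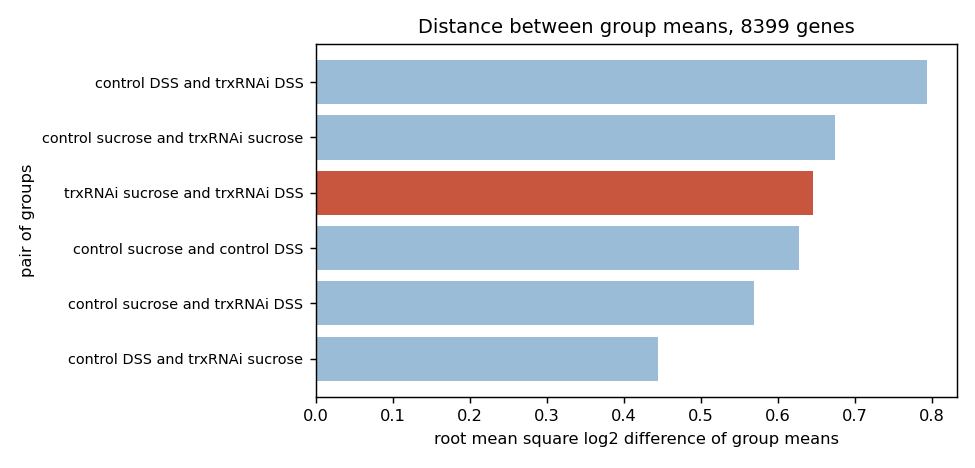
Bars give the root mean square log2 difference between the mean profiles of each pair of labelled groups over 8399 genes, and the red bar is the pair of trxRNAi sucrose and trxRNAi DSS. The shortest bar, 0.444, joins trxRNAi sucrose and control DSS, and the longest, 0.794, joins control DSS and trxRNAi DSS.

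Between the feeds in trxRNAi, limma called 298 genes, 3.55% of those tested. Of these, 81 were higher under DSS (0.964%) and 217 were lower (2.58%). The lower genes were also moved further, with a median absolute log2 difference of 2.02 against 1.50 for the higher genes, and 46 of them fell by at least 8-fold against 7 that rose by that much. In all 298 the values of the 3 DSS libraries did not overlap those of the 3 sucrose libraries, a pattern that 1770 of the tested genes (21.1%) showed. Fewer genes were called without any 1 of the 6 libraries, between 40 and 53 higher and between 127 and 162 lower, and voom weights gave 135 lower. The median difference of all tested genes was 0.00, and 4203 of 8399 lay above 0.

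Of 9 tested members of the EE fate list 5 fell under DSS and 1, Ptx1, rose (66.7% called, beside 3.55% of all genes). The list's median was -1.77 beside 0.00 for all genes. The largest fall was that of phyl, an adaptor that marks the repressor Tramtrack for destruction in sensory precursors. Its values were 76, 53 and 58 in trxRNAi sucrose and 6, 3 and 2 in trxRNAi DSS, a fall by 3.55 ± 0.55 or 11.7-fold (adjusted p = 0.000874 in limma, 0.0571 with voom weights). pros, which encodes Prospero, the homeobox factor that marks EE cells, had 1021, 853 and 1256 under sucrose and 94, 106 and 104 under DSS. The DSS libraries of pros lay closely together, far below the lowest sucrose value, and the gene fell by 3.32 ± 0.35 or 10.0-fold (adjusted p = 9.95e-05 in limma). KP78a and KP78b lie opposite pros, and no source used here says whether the authors counted by strand, so the values of genes that overlap others are uncertain throughout.

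The proneural gene ase had values of 22, 10 and 16 under sucrose and 1, 0 and 0 under DSS. Its fall by 2.92 ± 0.63 passed the test (adjusted p = 0.0121 in limma), but the call was lost without trxRNAi sucrose replicate 1 (0.0875) or 3 (0.057) and without DSS replicate 2 (0.0547) or 3 (0.0507). tap, another basic helix-loop-helix gene, fell by 1.97 ± 0.37 from 53, 51 and 46 to 15, 4 and 21. mirr, a homeobox gene of the Iroquois family, fell by 1.77 ± 0.31 from 122, 101 and 162 to 27, 46 and 36. Both passed under limma, with adjusted p of 0.00389 and 0.00217. The proneural gene sc (37, 24 and 23 against 3, 7 and 13) and dimm, a regulator of peptidergic cells (12, 16 and 23 against 4, 3 and 5), did not overlap between the feeds either but did not pass (adjusted p = 0.111 and 0.117 in limma). ttk, which encodes Tramtrack, differed by -0.17 with an adjusted p of 0.821 in limma. Poxn, ac, l(1)sc, nerfin-1 and sens were below the filter, with no value above 12 in the 6 libraries.

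Ptx1 (chromosome 3R, 30912754 to 30930682) went the other way. Its values were 13, 15 and 7 in trxRNAi sucrose and 77, 115 and 140 in trxRNAi DSS, so every DSS library held at least 77 and no sucrose library more than 15. The rise was 3.05 ± 0.33 on the log2 scale, or 8.30-fold, with a 95% confidence interval of 2.35 to 3.76 (adjusted p = 2.79e-05 in limma). In control libraries Ptx1 had 218, 176 and 162 under sucrose and 78, 50 and 33 under DSS, so the level in trxRNAi DSS lay between those of the control feeds, with overlap at the upper control DSS value.

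**Figure D2:**
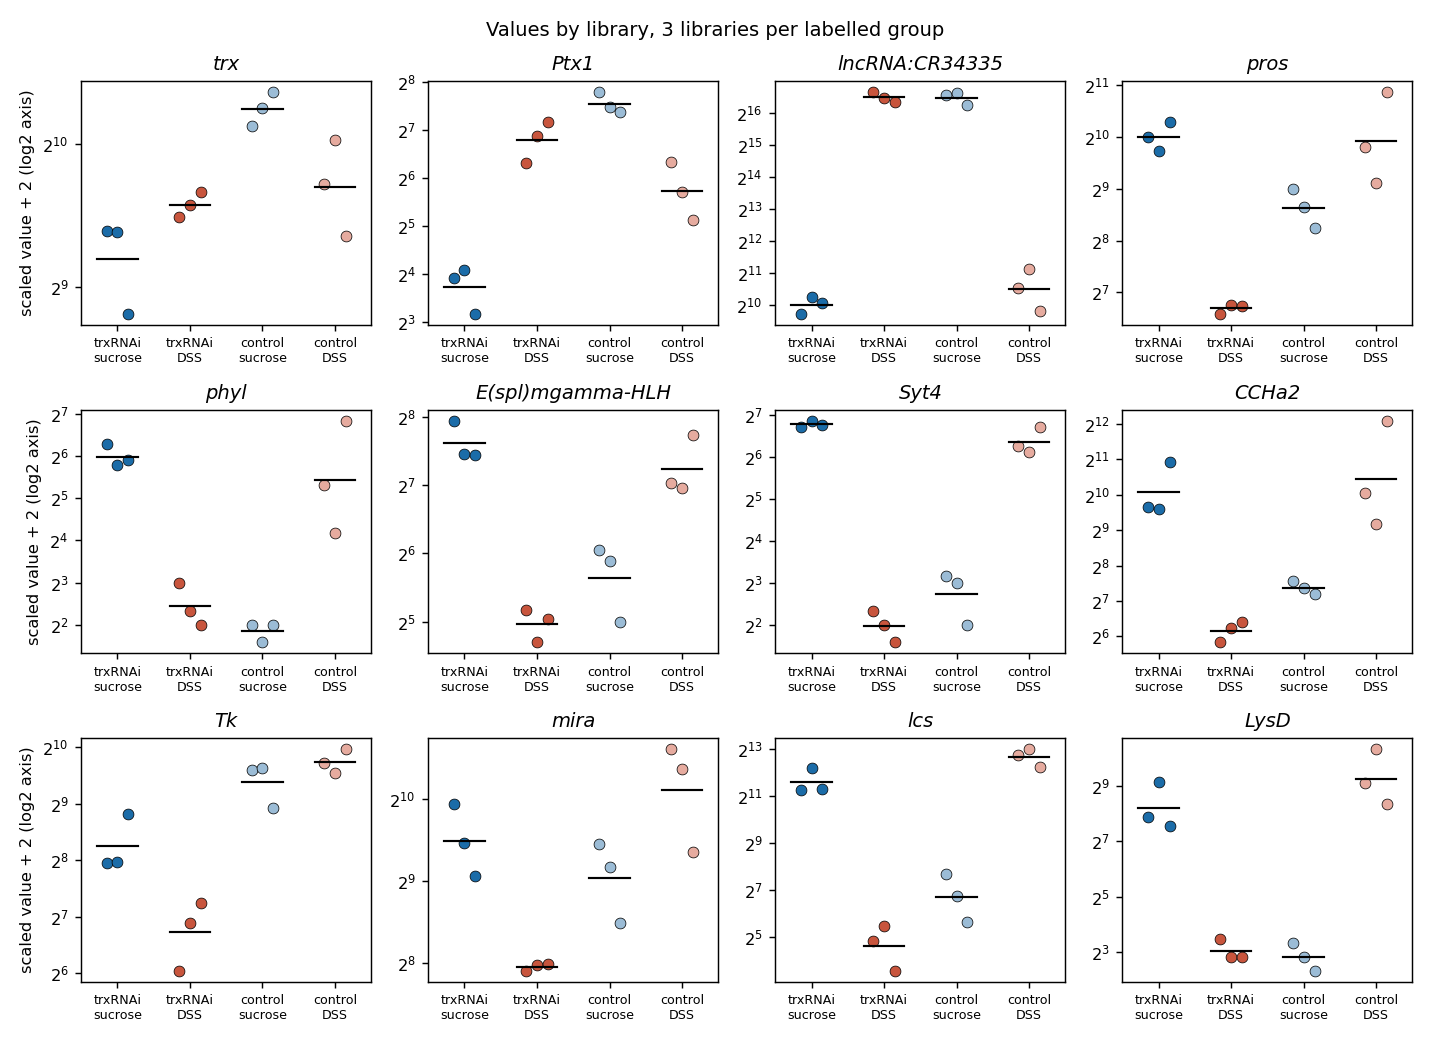
Each panel plots 1 gene, with the scaled value plus 2 on a log2 axis, 1 point per library, 3 libraries in each labelled group and a line at the group's mean of the log values. Ptx1 and lncRNA:CR34335 rise from trxRNAi sucrose to trxRNAi DSS, while phyl, pros, E(spl)mgamma-HLH, Syt4, CCHa2, Tk, mira, lcs and LysD fall, and trx shows the overlap of trxRNAi DSS with control DSS.

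Of 10 tested EE peptide hormones 3 fell (30%, beside 3.55% of all genes called) and none rose, with a median of -0.29. CCHa2, a nutrient-responsive gut hormone, had 804, 779 and 1960 under sucrose and 55, 74 and 82 under DSS. It fell by 3.91 ± 0.67 (adjusted p = 0.0126 in limma), a call that was lost without DSS replicate 1 (0.0606) or 2 (0.0504) and with voom weights (0.0709). Tachykinin, Tk, fell by 1.53 ± 0.31, or 2.88-fold, from 247, 249 and 451 to 64, 117 and 149 (adjusted p = 0.0114 in limma), and the call stood in each of the alternatives. sNPF, a short neuropeptide F precursor, had 22, 16 and 72 under sucrose and was listed at 0 in all 3 DSS libraries, with an adjusted p of 0.00662 in limma that became 0.0514 without sucrose replicate 3, 0.102 with a pseudocount of 8 and 0.263 with voom weights. The other 7 hormones did not pass. AstC (465, 290 and 296 against 372, 417 and 489), Orcokinin (445, 262 and 331 against 380, 504 and 742) and NPF (2156, 1324 and 1005 against 794, 1249 and 1340) overlapped between the feeds. CCHa1 went from 164, 148 and 161 to 100, 52 and 61 without overlap, but with an adjusted p of 0.265 in limma. Dh31, ITP and AstA had adjusted p-values of 0.694, 0.773 and 0.901 in limma. The tested and untested hormones took between 0.0752 and 0.104% of the summed values in trxRNAi sucrose and between 0.0488 and 0.0707% in trxRNAi DSS, ranges that did not overlap. CCHa2 gave 804, 779 and 1960 of the summed hormone values under sucrose and 55, 74 and 82 under DSS. ITP, with 1398, 1466 and 1627 under sucrose, exceeded it in sucrose replicates 1 and 2. The shares without CCHa2 were not computed, so the separation is not a result about the hormones in general.

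Of 19 tested genes of secretory granules and regulated release 8 fell under DSS and 1 rose (47.4% called, beside 3.55% of all genes). The list's median was -1.10. Without overlap between the feeds, 13 were lower (68.4%, beside 11.4% of all genes) and 3 higher (15.8%, beside 9.67%). Syt4, which encodes a synaptotagmin of the vesicle release machinery, had 104, 115 and 106 under sucrose and 3, 2 and 1 under DSS. The groups lay far apart relative to their spread, with a fall by 4.82 ± 0.40 or 28.2-fold (adjusted p = 1.84e-06 in limma). The active zone gene Rim fell by 2.23 ± 0.39 (29, 31 and 52 against 7, 8 and 4, adjusted p = 0.00217 in limma, 0.0819 with voom weights). cac, the pore-forming subunit of a voltage-gated calcium channel, fell by 1.67 ± 0.27 (83, 81 and 63 against 19, 18 and 32, adjusted p = 0.0013 in limma). Syt1, the calcium sensor of fast release, fell by 1.64 ± 0.35 (87, 81 and 82 against 28, 16 and 36), a call with an adjusted p of 0.0103 in limma that was lost without sucrose replicate 1 (0.0536) or DSS replicate 2 (0.0696) and with voom weights (0.0643). The synaptobrevin gene nSyb fell by 1.10 ± 0.24 (74, 78 and 107 against 36, 37 and 43, adjusted p = 0.0111 in limma), with 0.0782 without sucrose replicate 3. The member that rose was svr, a carboxypeptidase gene, named after its value was seen, with 892, 888 and 745 under sucrose and 1255, 1284 and 1410 under DSS (0.65 ± 0.16, adjusted p = 0.0303 in limma). When libraries were rescaled to their mean total svr was no longer called, so that no member rose and 8 fell.

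Notch target genes of the Enhancer of split complex fell in part. Of 10 tested Notch targets 5 fell (50%, beside 3.55% of all genes called) and none rose, with a median of -1.04. E(spl)mgamma-HLH, a basic helix-loop-helix repressor, had 244, 173 and 172 under sucrose and 34, 24 and 31 under DSS, a fall by 2.64 ± 0.30 or 6.24-fold (adjusted p = 3.65e-05 in limma). E(spl)m8-HLH, a repressor of the same family, fell by 3.49 ± 0.66 from 102, 87 and 94 to 19, 3 and 4 (adjusted p = 0.00581 in limma). The other 3 calls depended on single libraries. E(spl)m4-BFM, of the Bearded family, went from 17, 13 and 14 to 0, 1 and 0 (-2.86 ± 0.61, adjusted p = 0.0114 in limma, 0.0699 without sucrose replicate 1). E(spl)m7-HLH fell by 1.82 ± 0.42 (167, 99 and 146 against 46, 25 and 42) with an adjusted p of 0.0196 in limma, which was 0.107 and 0.0825 without sucrose replicates 1 and 3 and 0.113 and 0.0507 without DSS replicates 2 and 3. E(spl)m6-BFM fell by 1.55 ± 0.38 (116, 70 and 113 against 24, 24 and 55) with an adjusted p of 0.0282 in limma, which was 0.141 and 0.125 without sucrose replicates 1 and 3 and 0.117 and 0.144 without DSS replicates 1 and 2. These 5 genes lie in 1 gene cluster on chromosome 3R, where E(spl)m4-BFM, E(spl)m6-BFM, E(spl)m7-HLH and E(spl)m8-HLH are next to each other among tested genes. Other members of the complex did not pass: E(spl)mbeta-HLH had 4935, 3616 and 2567 against 3408, 3319 and 3147 (adjusted p = 0.9 in limma), E(spl)m3-HLH had 1891, 978 and 1571 against 554, 1758 and 1603 (adjusted p = 0.885), and E(spl)malpha-BFM differed by -0.53 (adjusted p = 0.0889).

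Of 11 tested members of the stem cell and enteroblast list 2 fell (18.2%, beside 3.55% of all genes called) and none rose, with a median of -0.17. Both that fell act in asymmetric division. sanpodo, spdo, a membrane protein that tunes Notch in dividing precursors, fell by 2.23 ± 0.36 from 146, 128 and 139 to 33, 20 and 32 (adjusted p = 0.00113 in limma). miranda, mira, which carries Prospero to 1 daughter of dividing neural stem cells, went from 980, 702 and 531 to 237, 248 and 251 (-1.54 ± 0.32, adjusted p = 0.0146 in limma), and its adjusted p was 0.0562 or 0.0786 without sucrose replicate 2 or 1 and between 0.0516 and 0.0684 without any 1 DSS library. The zinc finger gene chn went from 880, 874 and 946 to 587, 679 and 597 without overlap but did not pass (-0.54, adjusted p = 0.068 in limma), and heca differed by -0.35 (adjusted p = 0.44). The summed share of the list was 0.323 to 0.394% in trxRNAi sucrose and 0.242 to 0.311% in trxRNAi DSS. esg itself was not analysed here, and neither were Dl and hdc, which also belong to the planned list.

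Mitosis genes leaned to lower values under DSS. Of 34 tested mitosis genes 32 lay below 0 and the median was -0.75, and 21 of them (61.8%) were lower without overlap, beside 11.4% of all genes. Of the list 8.82% was called, beside 3.55% of all genes, with 2 genes that fell and 1 that rose. pavarotti, pav, a kinesin of cytokinesis, went from 61, 50 and 52 to 17, 20 and 13 (-1.61 ± 0.42, adjusted p = 0.0403 in limma), a call lost without each of the 6 libraries in turn, with adjusted p between 0.08 and 0.164. ncd, a minus-end kinesin of the spindle, went from 103, 87 and 117 to 51, 34 and 45 (-1.21 ± 0.28, adjusted p = 0.0196), and its adjusted p was 0.0847 and 0.101 without sucrose replicates 1 and 3 and 0.115 and 0.0571 without DSS replicates 2 and 3. Klp10A, a kinesin that shortens microtubules, went the other way from 121, 112 and 130 to 264, 259 and 223 (1.03 ± 0.18, adjusted p = 0.00229), in each case by limma. Incenp, of the chromosomal passenger complex, differed by -1.11 with an adjusted p of 0.0558 in limma. Of 30 S phase genes none passed, and their median was -0.14. Of these, 22 lay below 0 (73.3%, beside 49.9% of all genes). Without overlap 7 were lower (23.3%, beside 11.4%) and 1 higher (3.33%, beside 9.67%).

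**Figure D3:**
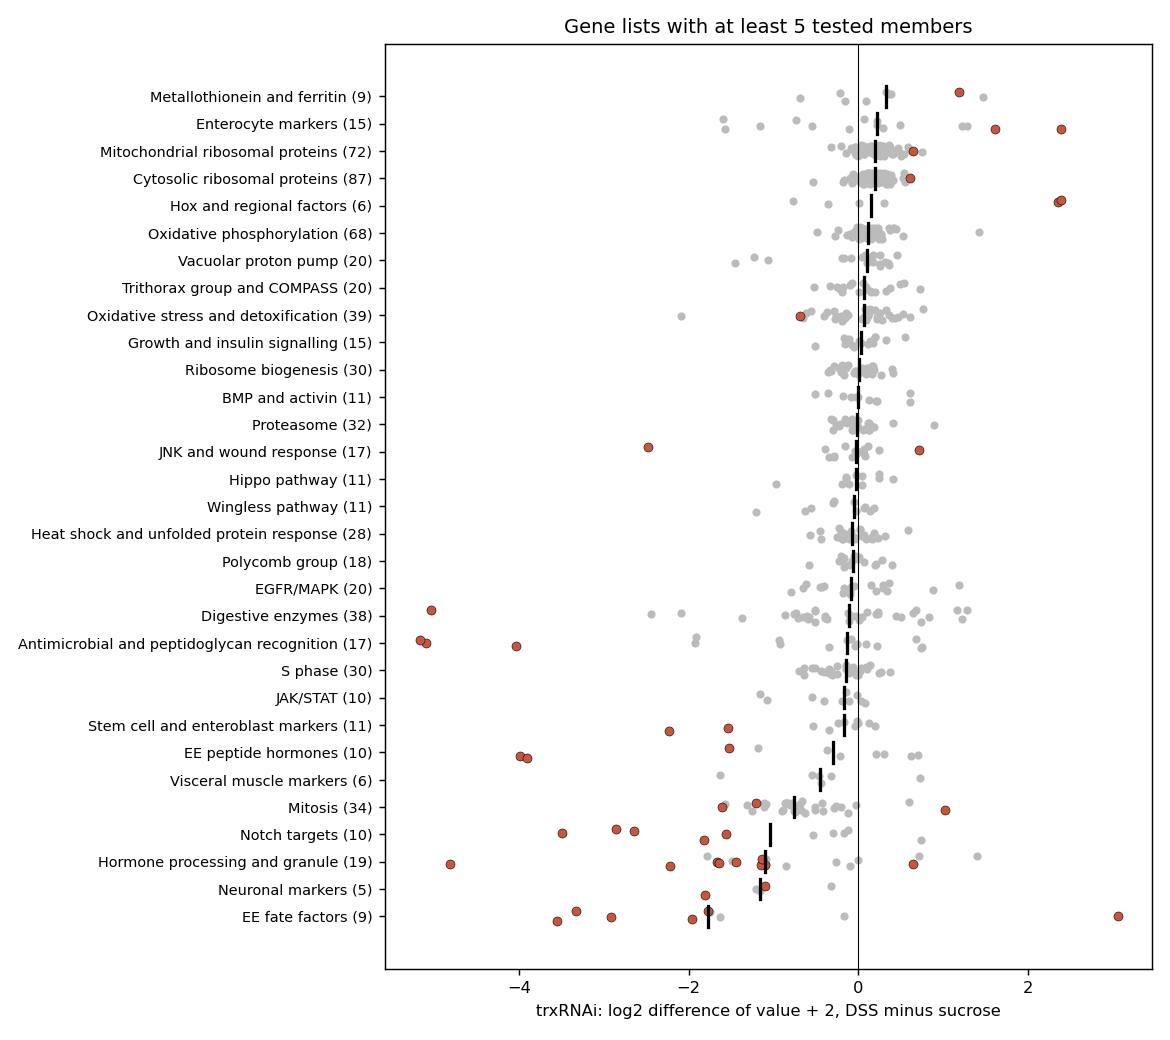
Each row is a gene list with at least 5 tested members, points are the log2 differences of its members between DSS and sucrose in trxRNAi, red points passed the limma test and black bars are list medians. EE fate factors (-1.77), neuronal markers (-1.16), granule genes (-1.10), Notch targets (-1.04) and mitosis genes (-0.75) have the lowest medians.

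Of 15 tested enterocyte markers 2 rose (13.3%, beside 3.55% of all genes called) and none fell, with a median of 0.22. The list was split, with 9 markers above 0 and 6 below. Without overlap between the feeds, 3 of the 15 were higher, beside 9.67% of all genes, and 4 of the 15 were lower, beside 11.4%. Both shares lay above those of all genes. Ssk went from 260, 252 and 454 to 115, 103 and 91 without overlap but did not pass (-1.58, adjusted p = 0.192 in limma). pdm3 differed by -1.59 with overlap between the feeds (adjusted p = 0.299 in limma). exex, a homeobox gene, rose by 1.61 ± 0.32 from 55, 49 and 28 to 76, 195 and 161 (adjusted p = 0.00645 in limma, 0.0586 without DSS replicate 2). caudal, cad, a homeobox gene of the posterior gut, went from 16, 21 and 7 to 55, 79 and 114 (2.39 ± 0.61, adjusted p = 0.043 in limma), a call lost without each of the 6 libraries in turn, with adjusted p from 0.0636 to 0.197, with a pseudocount of 1 (0.0791) and with rescaling to the mean total (0.0509). Among 6 Hox and regional factors (33.3% called) the Hox gene lab rose besides cad, from 1, 1 and 1 to 13, 14 and 13 (2.35 ± 0.43, adjusted p = 0.00271 in limma). Of 38 digestive enzyme genes 1 fell (2.63%, below the share of all genes), the maltase gene Mal-B1, from 88, 72 and 61 to 0, 0 and 1 (-5.03 ± 0.66, adjusted p = 0.000227 in limma).

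The lysozyme genes LysB, LysD and LysE, which digest bacterial cell walls and lie next to each other among tested genes on chromosome 3L, were the 3 members of the antimicrobial list that fell, of 17 tested (17.6%, beside 3.55% of all genes called), and none rose. LysD had 233, 561 and 187 under sucrose and 9, 5 and 5 under DSS (-5.17 ± 0.49, adjusted p = 2.78e-05 in limma). LysB went from 59, 161 and 95 to 2, 1 and 0 (-5.10 ± 0.50, adjusted p = 9.97e-06), and LysE from 45, 110 and 36 to 1, 1 and 3 (-4.04 ± 0.66, adjusted p = 0.00168). In all 3 the values of sucrose replicate 2 were the highest, and none of the calls stood with voom weights, which gave 0.127, 0.193 and 0.403. As paralogs they may share reads, and all 3 overlap mwh.

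Stress and wound genes showed single changes. Of 17 JNK and wound genes 1 rose and 1 fell (11.8% called, beside 3.55% of all genes). Mmp1, a matrix metalloproteinase gene, had 412, 630 and 443 under sucrose and 889, 681 and 832 under DSS (0.71 ± 0.18, adjusted p = 0.0409 in limma), and the call was lost without 5 of the 6 libraries, with up to 0.232 without sucrose replicate 1. ImpL2, which binds insulin-like peptides, went from 968, 984 and 1676 to 269, 180 and 184 (-2.48 ± 0.52, adjusted p = 0.0303), and lost its call without each of the 6 libraries in turn, with adjusted p from 0.0689 to 0.118. Of 39 oxidative stress and detoxification genes (2.56% called, below the share of all genes) GstS1, a glutathione transferase gene, fell by 0.69 ± 0.18 (adjusted p = 0.0441 in limma, up to 0.219 without DSS replicate 1). The metallothionein gene MtnE rose by 1.19 ± 0.29 from 43, 52 and 30 to 98, 99 and 89 (adjusted p = 0.0256 in limma, up to 0.145 without sucrose replicate 3), 1 of 9 metal genes tested (11.1%). No gene was called among 10 of the JAK/STAT pathway, 20 of EGFR/MAPK, 28 heat shock and unfolded protein genes, 20 of the Trithorax group, 18 of the Polycomb group, 11 each of the Wingless, Hippo and BMP pathways, 15 of growth signalling, 30 of ribosome biogenesis, 32 of the proteasome or 20 of the vacuolar proton pump, and their medians lay between -0.17 and 0.11. With 3.55% of all genes called, lists this short would hold few calls or none.

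Ribosomal protein genes leaned to slightly higher values. Of 87 cytosolic ribosomal protein genes 79 lay above 0 and 29 (33.3%) were higher without overlap, beside 9.67% of all genes, and the median was 0.19. Only RpS21 passed, from 13141, 12909 and 9228 to 21502, 15922 and 16210 (0.61 ± 0.16, adjusted p = 0.0427 in limma), and that call was lost without each of the 6 libraries in turn, with adjusted p from 0.0642 to 0.238. Of 72 mitochondrial ribosomal protein genes 58 lay above 0 with a median of 0.20, and mRpS31 alone passed (0.65 ± 0.17, adjusted p = 0.0455 in limma), also lost without each of the 6 libraries, with up to 0.215. The 68 oxidative phosphorylation genes had a median of 0.12 and none passed. Rescaling to the mean total moved the median of all genes by -0.08 and left medians of 0.11, 0.12 and 0.04 for the 3 lists, with no ribosomal protein gene called.

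Markers of other cell types were read beside these results. Neuronal markers fell in 2 of 5 tested (40%, beside 3.55% of all genes called), and all 5 lay below 0. The 2 were nSyb, which is also a granule gene, and the ELAV-family gene fne (50, 40 and 63 against 12, 15 and 12, -1.80 ± 0.35, adjusted p = 0.00547 in limma). The summed share of the neuronal list was 0.0173 to 0.0233% in trxRNAi sucrose and 0.0125 to 0.0166% in trxRNAi DSS, and VGlut, the marker of glutamatergic neurons, was at 0 in all 6 libraries. ChAT, the marker of cholinergic neurons, was below the filter, with 2, 3 and 7 under sucrose and 0, 0 and 1 under DSS. EE cells use part of the same genes, and the part of neurons in the fall of granule genes was not tested. Among hemocyte markers the scavenger receptor gene crq rose from 591, 599 and 585 to 1208, 1258 and 1132 (1.02 ± 0.15, adjusted p = 0.000614 in limma), while NimC1, eater, Pxn and PPO2 were at 0 in all 6 libraries and Hml at 0 in 5. Of the other members, srp, below the filter, went from 2, 0 and 1 to 6, 9 and 10, vkg, also below it, from 13, 3 and 10 to 3, 5 and 3, and Col4a1 from 24, 24 and 30 to 5, 12 and 10 (adjusted p = 0.179 in limma). The summed hemocyte share, 0.0103 to 0.011% against 0.0187 to 0.0214%, thus moved with crq. Visceral muscle markers took 0.00217 to 0.0024% under sucrose and 0.000981 to 0.0017% under DSS with none of 6 called and Act57B at 0 in all 6 libraries. The muscle titin gene sls had 31, 51 and 27 under sucrose and 12, 9 and 9 under DSS (-1.63, adjusted p = 0.0531 in limma), and 1 muscle marker was called lower after rescaling to the mean total. Tracheal markers and markers of fat body and ovary, 2 of each tested, had no calls.

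The largest rise was that of a noncoding RNA. lncRNA:CR34335 (chromosome X, 3545750 to 3546110, minus strand, within DIP-alpha on the same strand) had 837, 1198 and 1066 in trxRNAi sucrose and 102145, 89533 and 82960 in trxRNAi DSS. The rise was 6.48 ± 0.25, or 89-fold (adjusted p = 7.43e-09 in limma), and it took this RNA from between 0.0146 and 0.0197% to between 1.37 and 1.57% of the summed values. asRNA:CR45822, antisense to CTCF, went from 0, 0 and 1 to 66, 33 and 46 (4.41 ± 0.49, adjusted p = 3.04e-05). asRNA:CR45835, antisense to Sec63, rose by 2.51 ± 0.51 from 12, 8 and 2 to 55, 48 and 34 (adjusted p = 0.00774), in both cases by limma.

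Other large rises were of genes with unrelated roles. pyd3, an enzyme gene of pyrimidine breakdown, went from 17, 7 and 6 to 141, 173 and 187 (3.92 ± 0.40, adjusted p = 1.21e-05 in limma), and its neighbour Sp7, a serine protease gene, from 6, 8 and 2 to 95, 92 and 99 (3.83 ± 0.50, adjusted p = 0.000153). AstA-R1, a receptor for the gut peptide allatostatin A, went from 3, 5 and 7 to 60, 84 and 81 (3.49 ± 0.40, adjusted p = 4.02e-05). The zinc finger gene sens-2 rose by 2.65 ± 0.38 from 18, 20 and 8 to 101, 102 and 100, and the cytochrome P450 gene Cyp6a23 by 2.60 ± 0.24 from 34, 46 and 26 to 195, 220 and 243, with adjusted p of 0.000421 and 3.46e-06 in limma. In all 5 the highest sucrose library lay far below the lowest DSS library, and no alternative ended these calls.

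A further 3 large rises depended on single libraries. drm, a zinc finger gene of the odd-skipped family, went from 7, 13 and 25 to 43, 273 and 200 (3.14 ± 0.67, adjusted p = 0.0207 in limma), with 0.113 and 0.094 without sucrose replicates 1 and 2, 0.069 and 0.0775 without DSS replicates 2 and 3, and 0.216 with voom weights. CG33914 went from 1, 3 and 0 to 32, 12 and 18 (2.77 ± 0.59, adjusted p = 0.0104), with 0.0561 without sucrose replicate 3 and 0.0763 without DSS replicate 1. The channel gene ppk29 went from 1, 2 and 4 to 29, 21 and 24 (2.67 ± 0.61, adjusted p = 0.0167), with adjusted p between 0.0577 and 0.0875 without 5 of the 6 libraries, the highest without sucrose replicate 1, all by limma.

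The largest falls were of little-described genes, several of them neighbours. lcs had 2427, 4594 and 2535 under sucrose and 27, 43 and 10 under DSS, a fall by 6.93 ± 0.60 or 122-fold (adjusted p = 0.000237 in limma). whe, next to lcs on chromosome X, went from 3134, 5301 and 2339 to 32, 64 and 7 (-6.96 ± 0.93, adjusted p = 0.00387). CG16826 went from 3288, 6061 and 3795 to 65, 117 and 14 (-6.39 ± 0.80, adjusted p = 0.0026). In these 3 genes sucrose replicate 2 and DSS replicate 2 held the highest and DSS replicate 3 the lowest value.

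The same order of libraries within the groups was seen in CG34212 (981, 1560 and 683 against 5, 27 and 2, -6.77 ± 0.84, adjusted p = 0.00245 in limma). CG45080 had 3251, 5365 and 3514 against 76, 138 and 7 (-6.42 ± 0.96, adjusted p = 0.0073), a call that a fit of the 6 trxRNAi libraries alone did not give (0.0775). Its neighbour CG44142 had 84, 185 and 69 against 1, 3 and 0 (-5.07 ± 0.60, adjusted p = 9.79e-05). CG13947 had 259, 1813 and 257 against 0, 3 and 1 (-7.32 ± 0.84, adjusted p = 0.000802), and voom weights gave 0.493 for it. CG43680, which lies within Sytbeta, had 194, 306 and 240 against 2, 5 and 1 (-5.80 ± 0.37, adjusted p = 5.06e-08), and CG33109 had 105, 121 and 109 against 1, 3 and 0 (-5.19 ± 0.45, adjusted p = 2.05e-06), all by limma.

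**Figure D4:**
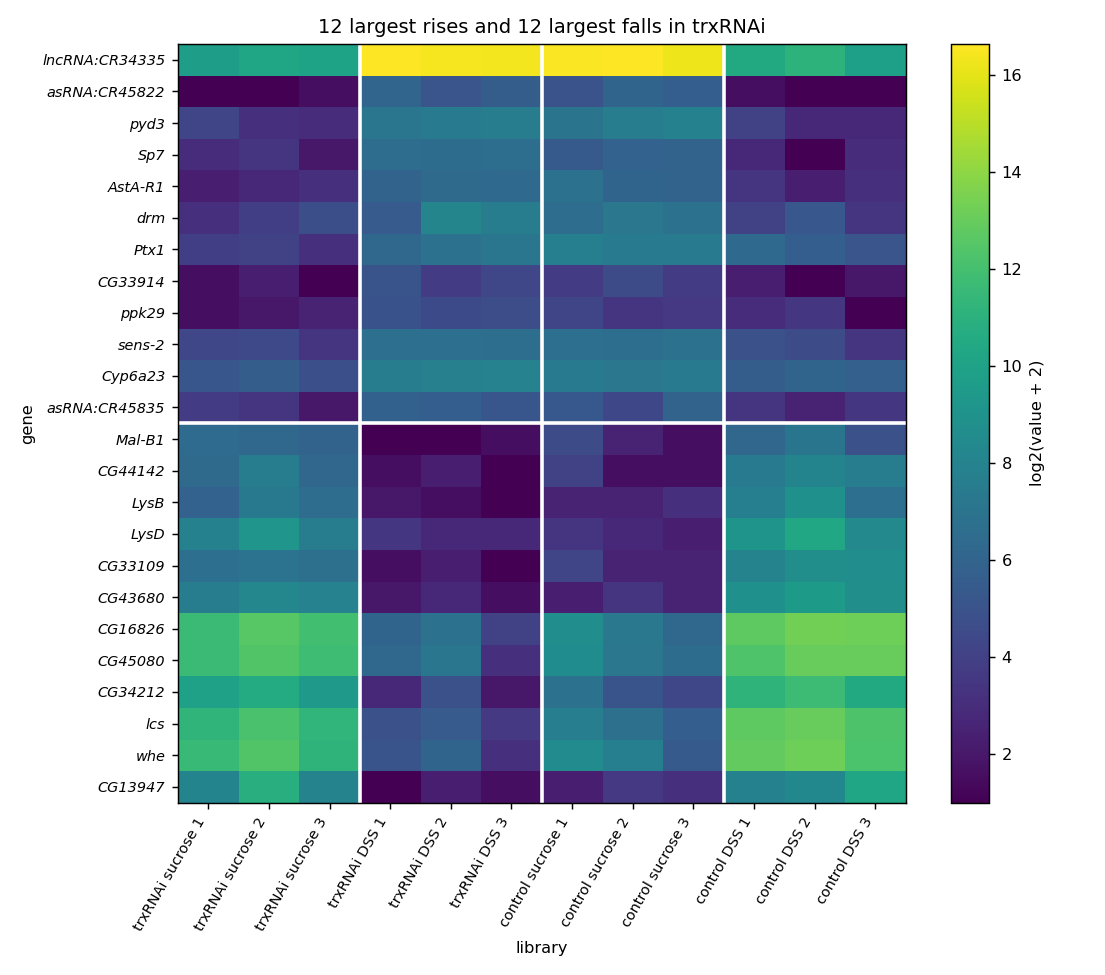
Rows are the 12 largest rises (top) and 12 largest falls (bottom) in trxRNAi, columns are the 12 libraries and colour is log2 of the value plus 2. The rows are dark and light in opposite order in control and trxRNAi libraries, and the 3 libraries of a group resemble each other.

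Some called genes were neighbours. Of 295 called genes on the chromosome arms, 62 (21.0%) had a called gene of the same direction as their next tested gene. Of 40 adjacent pairs of called genes 33 moved the same way, such as lcs and whe, CG44142 and CG45080, LysB and LysD, and pyd3 and Sp7. As 217 of the 298 called genes were lower, many pairs of called genes would share a direction wherever they lie. No expected share of neighbours or of shared direction was computed. In 7 of the 33 pairs the genes overlap, so the same reads may count for both, and 28SrRNA-Psi:CR45862 and pre-rRNA:CR45856 had identical values in trxRNAi libraries. Calls made up 3.27 to 3.78% of tested genes on the X chromosome and the arms of chromosomes 2 and 3, and 1.59% (1 of 63) on chromosome 4.

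The response in trxRNAi was set beside that in control, measured in separate libraries. DSS called 259 genes in control (3.08%), 145 higher (1.73%) and 114 lower (1.36%). Across the 8399 genes the feed differences in trxRNAi and control had a Pearson correlation of -0.69 and a Spearman correlation of -0.50, given as a description, since genes are not independent replicates and all libraries entered 1 model. Of the 298 genes called in trxRNAi 292 (97.99%) had the opposite sign in control, beside 66.76% of all genes. Called in both were 157 genes, which is 52.68% of the trxRNAi calls and 60.62% of the control calls, and none of them had the same sign.

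**Figure D5:**
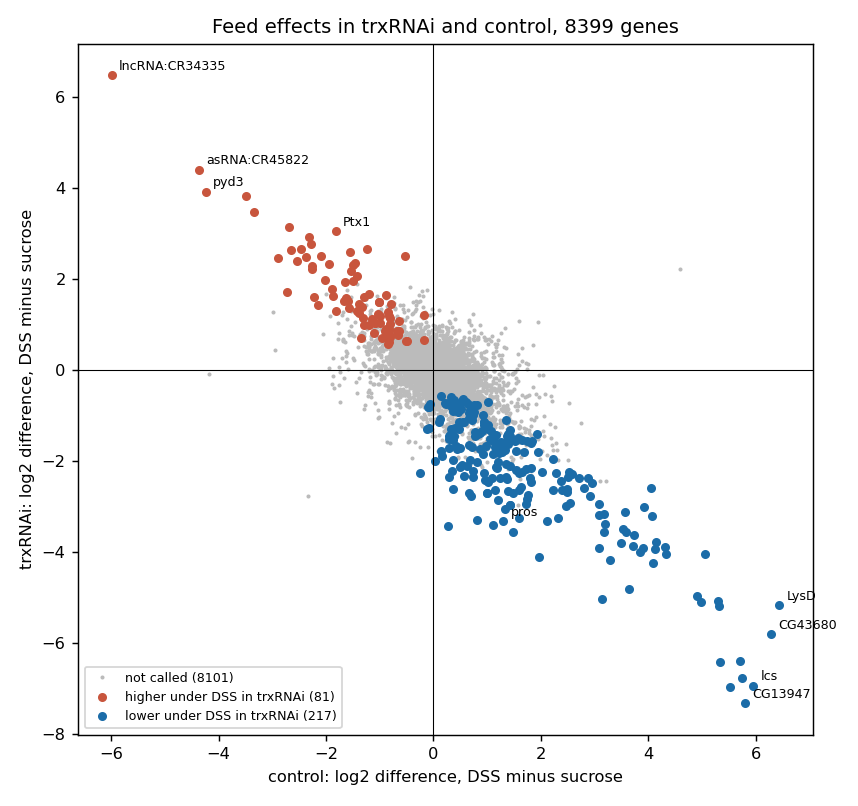
Each point is a gene, with the log2 difference between DSS and sucrose in control on the horizontal axis and in trxRNAi on the vertical axis, and genes called in trxRNAi are red (81 higher) or blue (217 lower). The called genes lie mostly towards the upper left and lower right corners, with lncRNA:CR34335 at 6.48 in trxRNAi and -5.99 in control.

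The difference of the feed responses was tested directly as an interaction in the same model. It was called for 744 genes (8.86%), 303 with a higher response in trxRNAi (3.61%) and 441 with a lower one (5.25%). Rescaling to the mean total gave 167 and 599. Averaged over the genotypes, the feed effect gave 0 calls in limma, with 247 genes at an unadjusted p under 0.05, a smallest adjusted p of 0.523 and also 0 calls with voom weights.

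The largest changes in trxRNAi had large interactions, in part by construction, as the interaction contains the difference in trxRNAi. lncRNA:CR34335 had 94919, 100895 and 76749 in control sucrose and 1450, 2206 and 892 in control DSS, so its response was -5.99 in control and 6.48 in trxRNAi (interaction adjusted p = 8.84e-11 in limma). lcs had 206, 107 and 48 in control sucrose and 6808, 8130 and 4843 in control DSS, a response of 5.95 beside -6.93 in trxRNAi (interaction adjusted p = 1.99e-05). phyl rose in control from 2, 1 and 2 to 38, 16 and 113, by 3.58, beside its fall by 3.55 in trxRNAi (interaction adjusted p = 1.14e-05).

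Not every fall in trxRNAi mirrored control by as much. Tk had 777, 794 and 483 in control sucrose and 842, 743 and 1001 in control DSS, a difference of 0.36, with an interaction adjusted p of 0.0146 in limma. pros differed by 1.30 in control (508, 402 and 300 against 891, 553 and 1870, interaction adjusted p = 5.42e-05). cac, Rim and tap differed by 0.42, 0.34 and 0.36 in control, and the interaction was called for each, with adjusted p of 0.0018, 0.00589 and 0.00827 in limma.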

How the data were processed

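GFP-positive progenitors of adult midguts were profiled by 3′ mRNA sequencing in 12 libraries, 3 per group, grouped and numbered by their titles. The submitters' processing notes list the dm6 build and HISAT2, Bowtie2, bcl2fastq, edgeR, limma, DESeq and DESeq2, and name no version and no step for them. Which of them counted or scaled the reads, on which annotation and whether by strand is not given in the sources used here. In the deposited files each of 17617 genes has a whole number, and in 9 of 12 libraries classes of low values (1 to 12) are empty or stand well above the class before, as counts multiplied by a factor and rounded would. No source used here names such a step and 3 libraries lack the pattern, so the values were treated as a score as deposited by the authors, with its scaling unknown, and no count test was run. True depth is therefore not given here, and no counting intervals were computed. Value totals ran from 5362337 to 6520981, and no pair of libraries held identical values.

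The 8399 genes that reached 10 in at least 3 libraries (7870 of them protein coding) were fitted on log2(value + 2) with limma 3.58.1 and statmod 1.5.0 in R 4.3.3. All 12 libraries entered with a mean per group, an intensity trend and robust variance, so the groups shared 1 estimate of spread. Benjamini-Hochberg adjustment covered every tested gene, and the threshold was 0.05, and the fit was tested on simulated data. Symbols and positions came from an Ensembl annotation in dm6 coordinates, and 17520 identifiers matched a symbol while 97 did not.

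Named genes were trx and Ptx1, the 12 largest rises and 12 largest falls among called genes without overlap and with a mean of at least 20 in the higher group, the members of each list with the lowest p (at most 4), the members of the EE hormone, EE fate and Notch lists, and the 6 most positive and 6 most negative interactions. Genes named after their values were seen are stated as such. The members of the comparison and the 34 gene lists were chosen with earlier results of these data known. Alternatives were pseudocounts of 1 and 8, no filter, a filter of 50, rescaling to the mean total or by median-of-ratios factors, voom weights, a replicate block, an absolute log2 difference of at least 1, the 6 trxRNAi libraries alone, and leaving out each library in turn.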

Additional observations from a re-analysis of the deposited data

Results flagged for a closer look

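The response to DSS differed between trxRNAi and control, by the interaction term of the limma model, for 744 genes (8.86% of those tested). The genes taken by the naming rule with a called interaction follow, also where the difference between the feeds in trxRNAi did not itself pass. Values in parentheses are the log2 response in trxRNAi minus that in control, so a negative value is a lower response in trxRNAi. Each had an adjusted p under 0.05 in limma, and no explanation was tested. As the interaction contains the difference in trxRNAi, genes picked for large rises or falls there tend to large interactions by construction.

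Among 9 EE fate genes the interaction was lower for 7, phyl (-7.13), ase (-5.46), pros (-4.62), sc (-3.97), mirr (-3.30), dimm (-3.05) and tap (-2.33), and higher for Ptx1 (4.87). Among 10 hormone genes it was lower for sNPF (-7.84), CCHa2 (-6.98) and Tk (-1.88) and higher for AstC (1.93) and Orcokinin (1.73). Of 19 genes of granules and release 10 were lower and 1 higher, and those taken by the rule were Syt4 (-8.46), Rim (-2.56), Syt1 (-2.30), cac (-2.08) and nSyb (-1.82). Among 10 Notch targets 6 were lower, E(spl)m8-HLH (-7.02), E(spl)mgamma-HLH (-4.23), E(spl)m4-BFM (-4.05), E(spl)m6-BFM (-3.30), E(spl)m7-HLH (-3.04) and E(spl)malpha-BFM (-0.86).

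Genes of the stem cell, mitosis and S phase lists had lower responses in spdo (-3.88), mira (-2.61), chn (-0.73), pav (-3.42), ncd (-2.22), Incenp (-1.93) and RPA1 (-0.98) and a higher one in Klp10A (2.12). Regional and enterocyte factors were higher in cad (4.92), exex (3.84), lab (3.82) and vnd (1.17) and lower in pdm3 (-3.87) and Ssk (-3.17). The neuronal genes fne (-3.75) and brp (-1.78) and the muscle gene sls (-2.31) had lower responses, and the hemocyte gene crq (1.82) a higher one.

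Among stress, signalling, metal and digestive genes the response was higher in trxRNAi for Mmp1 (2.06), MtnE (2.18), Ctr1B (2.84), Fer1HCH (0.81), GstO3 (1.38), Thor (1.26), rl (1.99), vn (2.53) and mats (0.74) and lower for ImpL2 (-5.43), GstS1 (-1.30), GstE10 (-3.47), upd2 (-2.39), aos (-1.21) and Jon25Bii (-5.65). Among chromatin, ribosome, proteasome and proton pump genes it was higher for trx (0.92), RpS21 (1.44), mRpS31 (1.16), RpL7 (0.93), RpL30 (0.94), RpL37A (0.85), Non1 (1.05), Prosalpha1 (1.65) and Vha100-1 (0.74) and lower for esc (-2.54) and Rpt5 (-0.89).

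The largest rises in trxRNAi had positive interactions, in lncRNA:CR34335 (12.47), asRNA:CR45822 (8.77), pyd3 (8.16), Sp7 (7.32), AstA-R1 (6.82), drm (5.82), sens-2 (5.11), CG33914 (5.05), asRNA:CR45835 (4.61), Cyp6a23 (4.14) and ppk29 (3.90). The largest falls had negative ones, in CG13947 (-13.12), lcs (-12.88), CG34212 (-12.51), whe (-12.47), CG16826 (-12.11), CG43680 (-12.09), CG45080 (-11.75), LysD (-11.60), CG33109 (-10.51), CG44142 (-10.36), LysB (-10.08), LysE (-8.37) and Mal-B1 (-8.16).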

How the results depend on the processing

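The 298 calls in trxRNAi, 81 higher and 217 lower, were the count most affected by the choice of libraries and weights. Leaving out 1 of the 6 trxRNAi libraries gave between 40 and 53 genes higher and between 127 and 162 lower, the lowest of each without sucrose replicate 1, where 165 of the 298 calls were shared. Voom weights gave 135 lower, with 195 of the 298 calls shared, and the 6 trxRNAi libraries alone gave 130 higher. For the interaction, a filter of 50 gave 279 genes lower and rescaling to the mean total gave 167 higher, as it moved the median difference of all genes by -0.23. Leaving out 1 of the 12 libraries gave between 205 and 336 interaction genes higher and between 326 and 447 lower. The other counts stayed within 1.5 times those reported. Same-numbered trxRNAi libraries of the 2 feeds deviated together with correlations of -0.03, -0.20 and 0.12, so the numbers were not taken to pair the libraries. With the replicate block 85 genes were higher and 226 lower in trxRNAi, and 328 and 456 in the interaction. Of 59 called named genes 37 kept their call without any 1 of the 6 libraries and 30 kept it under every alternative that was run, and no named gene that was called under any alternative changed sign. Genes of low value, such as those with values under 20 in every library of a group, have the least certain differences, and the depth behind the scaled values is not known.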

Other observations

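Further genes called between the feeds in trxRNAi were chosen after their values were seen and are given as values only. The immunoglobulin superfamily gene rst had 254, 249 and 259 in trxRNAi sucrose and 31, 27 and 37 in trxRNAi DSS, a fall by 2.94 ± 0.27 (adjusted p = 3.46e-06 in limma), and its relative kirre went from 74, 57 and 57 to 17, 9 and 14 (-2.10 ± 0.34, adjusted p = 0.0013). The neural cadherin gene CadN went from 35, 30 and 35 to 1, 2 and 1 (-3.42 ± 0.42, adjusted p = 9.64e-05), and Ama, a secreted partner of a neural adhesion receptor, from 116, 169 and 157 to 9, 5 and 5 (-4.18 ± 0.66, adjusted p = 0.00184). Con, a leucine-rich repeat adhesion gene, fell by 3.55 ± 0.50 from 43, 31 and 37 to 0, 1 and 4 (adjusted p = 0.000334). The guidance gene Sema2b fell by 1.57 ± 0.21 from 1591, 1555 and 1298 to 554, 468 and 468 (adjusted p = 0.000185), and the neurexin gene Nrx-1 by 2.21 ± 0.43 from 66, 56 and 74 to 8, 17 and 14 (adjusted p = 0.00674), all by limma.

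Several of the genes picked in this way are known from excitable cells. The picking may have favoured them, and their share among all calls was not computed. Ih, a hyperpolarization-activated channel gene, went from 1192, 866 and 1235 to 284, 343 and 313 (-1.79 ± 0.18, adjusted p = 9.97e-06 in limma). The calcium-activated potassium channel gene SK went from 45, 28 and 51 to 6, 8 and 9 (-2.14 ± 0.36, adjusted p = 0.00169), and Rbp, an active zone gene that binds Rim, from 58, 43 and 102 to 4, 3 and 8 (-3.29 ± 0.43, adjusted p = 0.000163). Appl, the fly relative of the amyloid precursor gene, went from 180, 115 and 209 to 27, 33 and 27 (-2.42 ± 0.36, adjusted p = 0.00113), each by limma.

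Others encode transcription factors. br, an ecdysone-induced zinc finger gene, went from 411, 360 and 429 to 114, 59 and 63 (-2.38 ± 0.27, adjusted p = 4.02e-05 in limma), with a control response of 2.70. fru, a BTB zinc finger gene, went from 3441, 2610 and 2234 to 934, 1079 and 1175 (-1.36 ± 0.21, adjusted p = 0.000874). The Notch-responsive gene Hey went from 21, 13 and 29 to 4, 0 and 0 (-2.93 ± 0.62, adjusted p = 0.0103), and the POU factor gene acj6 from 25, 38 and 28 to 0, 1 and 5 (-3.20 ± 0.73, adjusted p = 0.0175). The homeobox gene ap was higher, with 0, 2 and 0 under sucrose and 10, 8 and 14 under DSS (2.30 ± 0.62, adjusted p = 0.0471), each by limma.

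Genes of the acyl-CoA binding family, which carry activated fatty acids, moved in different directions. Acbp5 rose from 238, 293 and 319 to 1250, 1024 and 1048 (1.96 ± 0.19, adjusted p = 5.62e-06 in limma) and Acbp3 from 11, 12 and 12 to 63, 39 and 32 (1.72 ± 0.34, adjusted p = 0.00668), while its neighbour Acbp6 went from 24, 10 and 38 to 4, 3 and 3 (-2.13 ± 0.58, adjusted p = 0.0498). Idgf3, of the chitinase-like growth factors, went from 36, 44 and 44 to 0, 1 and 1 (-4.04 ± 0.46, adjusted p = 4.02e-05), and the pseudogene CR6434 from 356, 356 and 264 to 14, 4 and 10 (-4.95 ± 0.40, adjusted p = 1.84e-06), each by limma.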
